A study of Mus musculus with 4 samples.

Results

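Myofibroblast-like cells of MC38 tumors were examined, 331 cells among 24989 cell barcodes with more than 1000 detected genes (33228 barcodes in all). MC38 is a mouse colon adenocarcinoma line. A barcode was first taken as a Pdgfra fibroblast if it held at least 20 unique molecular identifiers (UMIs) of Col1a1, Col1a2 and Col3a1, at least 1 UMI of Pdgfra, at most 1 UMI of the tumor genes Rhox5 and Prl2c2, and 0 UMIs of Ptprc and of Pecam1. Of these 1373 fibroblasts, the 331 members had more UMIs of Acta2, Tagln, Tnc and Tnn than of Dpt, Clec3b and Pi16. The other 1029 had fewer and are called Dpt-leading fibroblasts, and 13 had equal numbers. The members were thus chosen by measured UMIs of these genes. They were 27 cells in the WT tumor given IgG, 246 in that given anti-PD1, and in the A159V tumors 33 with IgG and 25 with anti-PD1, so 74.3% came from 1 library.

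The tumors were grown under the skin of C57BL/6 mice from MC38 cells with RAC1, a small GTPase, in its wild-type form (WT), or from 1 edited clone homozygous for the A159V substitution. Each tumor type was treated with an anti-PD1 antibody, which blocks a checkpoint receptor of T cells, or with an IgG isotype control. The libraries are WT IgG and WT anti-PD1, then A159V IgG and A159V anti-PD1, and values for the 4 libraries are given in this order unless named. In every group the fibroblasts were taken as cells of the host, whose own Rac1 was not edited. On that reading A159V marks the tumor cells around the members and not the members themselves. The origin of the members was not checked by genotype. Each group had 1 library and the number of mice behind it is not given in the sources used here, so the spread between animals is unknown, no test was possible, and the library and the condition cannot be told apart.

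Fibroblasts in connective tissue lay down collagen and other matrix. In wounds and tumors some of them become myofibroblasts, which add a contractile apparatus of alpha-smooth muscle actin (Acta2), transgelin (Tagln) and tropomyosins, and secrete a provisional matrix with tenascins (Tnc, Tnn), periostin and osteopontin (Spp1). Transforming growth factor beta (TGF-beta) is a well known inducer of this state. Fibroblasts with Dpt, Clec3b and Pi16 form a widespread resting type that is often found in the adventitia around vessels.

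Many contractile genes are controlled by serum response factor, which binds a 10-base element, the CArG box. To place the members' contractile genes beside their promoters, the window from 250 bases before to 50 bases after each gene's start in RefSeq was searched for it on both strands. An exact box was found for 488 of 27025 genes (1.81%), for 3 of 16 matched contractile genes (Cnn2, Myl9 and Vcl, 18.8%), for 0 of 11 matched genes of universal fibroblasts and for 0 of 25 matched matricellular genes. With 1 other base allowed in the middle of the box, the share was 11.3% of all genes, beside 18.8% of the contractile (3 of 16), 9.09% of the universal fibroblast (1 of 11) and 8% of the matricellular genes (2 of 25), so that the lists lay nearer to all genes than with the exact box. Acta2, which chose the members and is on none of these lists, had 2 such boxes. Tagln was not in the RefSeq table, and no box was found for Tnc. A match is a description of letters and not of binding.

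The sequences below are shown because they are the windows of the contractile genes with an exact box, followed by the boxes of Acta2, whose UMIs chose the members. The capitals mark each box. The coordinates are from GRCm38.p6, and each sequence is written 5′ to 3′ on the strand of its gene. Those of Myl9, Cnn2 and Vcl end where the GENCODE M21 gene begins. The 30-base stretches of Acta2 lie before its RefSeq start and inside the first exon of the longer GENCODE M21 gene.
Myl9, chr2:156775214-156775419, plus strand: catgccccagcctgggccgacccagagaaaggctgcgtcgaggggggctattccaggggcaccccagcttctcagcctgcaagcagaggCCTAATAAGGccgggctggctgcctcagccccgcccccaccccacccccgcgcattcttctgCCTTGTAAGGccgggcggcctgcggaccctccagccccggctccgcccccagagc
Cnn2, chr10:79988350-79988583, plus strand: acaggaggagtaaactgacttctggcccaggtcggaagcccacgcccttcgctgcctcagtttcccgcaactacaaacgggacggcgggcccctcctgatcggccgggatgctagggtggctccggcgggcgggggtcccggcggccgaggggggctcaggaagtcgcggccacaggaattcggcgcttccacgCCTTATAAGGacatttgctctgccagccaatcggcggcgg
Vcl, chr14:20929148-20929397, plus strand: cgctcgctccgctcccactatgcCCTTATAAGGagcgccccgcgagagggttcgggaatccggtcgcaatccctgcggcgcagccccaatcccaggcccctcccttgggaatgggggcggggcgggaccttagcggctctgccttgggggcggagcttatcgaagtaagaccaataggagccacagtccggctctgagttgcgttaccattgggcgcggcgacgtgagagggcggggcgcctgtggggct
Acta2, chr19:34255438-34255467, minus strand: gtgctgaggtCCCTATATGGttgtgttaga
Acta2, chr19:34255388-34255417, minus strand: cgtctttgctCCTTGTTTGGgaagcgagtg
The exact box began 161 bases before the RefSeq start of Myl9, 56 bases before that of Cnn2 and 227 bases before that of Vcl. Myl9 held another box, with 1 other base, 99 bases before its start. The boxes of Acta2 began 84 and 34 bases before its start, each with 1 other base.

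The libraries held 5336 to 7216 barcodes with more than 1000 genes. WT anti-PD1 stood apart in its makeup before any gene was compared. By marker UMIs it held 21 tumor cells, against 1390, 2385 and 1600 in the others, and 1014 Pdgfra fibroblasts, against 98, 117 and 144. The members were deep cells, with medians of 19104, 18881.5, 11925 and 15041 UMIs, while the Dpt-leading fibroblasts had 13507.5, 14567.5, 7272.5 and 11576. Summed over cells, the members had 596801, 4891750, 395231 and 386657 UMIs, and their deepest cell gave 8.82%, 1.40%, 4.97% and 10.96% of them. WT anti-PD1 therefore gave levels with the least counting error, and a gene in the other libraries could rest on 1 cell. Pairs of libraries shared 13 to 22 barcodes, none of them a member. Levels are given as UMIs summed over a class of cells scaled to counts per 1000000 (CPM), and intervals are at 95% and hold counting error alone.

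The members made up 4.61% of cells in WT anti-PD1 (exact binomial interval 4.06 to 5.21). In WT IgG they made up 0.438% (0.289 to 0.637), and in the A159V tumors 0.526% with IgG (0.362 to 0.738) and 0.346% with anti-PD1 (0.224 to 0.511). The share in WT anti-PD1 lay apart from the other 3, whose intervals overlapped. It was 10.5-fold that of WT IgG (7.09 to 15.6), whereas A159V IgG had 1.20-fold the share of WT IgG (0.723 to 1.99) and A159V anti-PD1 had 0.659-fold the share of A159V IgG (0.392 to 1.11). Cells were remixed by CD45 at a set ratio before loading, and the number of tumor cells differed as given above, so that these shares do not give the numbers of members in a tumor. The limit on tumor-gene UMIs also acted unequally. Of the barcodes with enough collagen and Pdgfra UMIs it kept 138 of 267, 1502 of 1512, 155 of 189 and 179 of 196. How many of those left out were fibroblasts was not tested, and no alternative changed this limit.

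**Figure D1:**
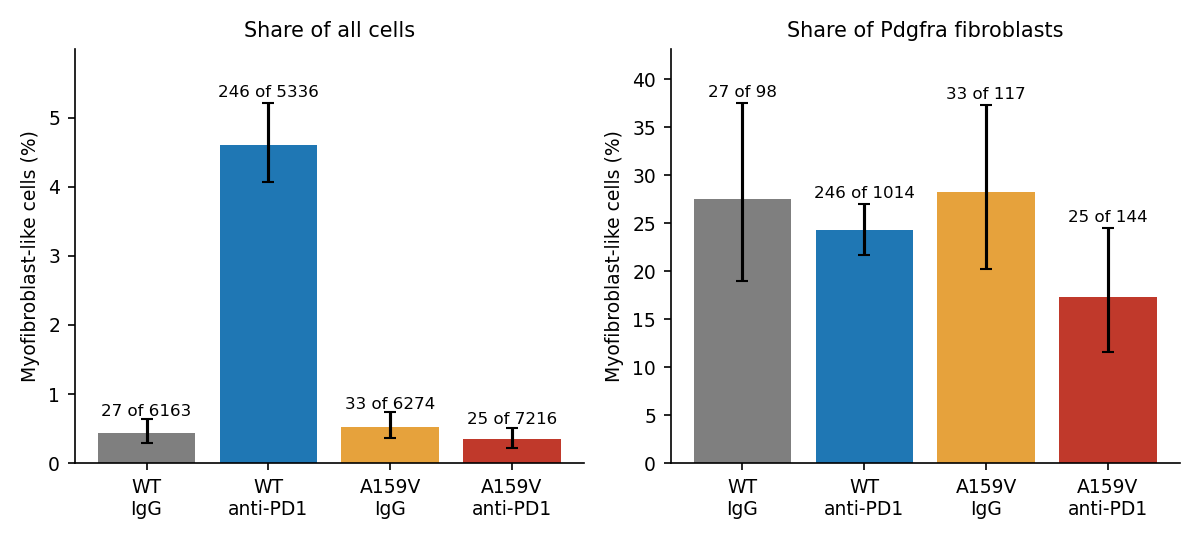
Share of myofibroblast-like cells among all cells with more than 1000 genes and among Pdgfra fibroblasts, in percent, for the 4 libraries. Bars start at 0 and lines are exact binomial 95% intervals, so the bar of WT anti-PD1 (4.61%) stands apart among all cells while the bars among fibroblasts lie between 17.4% and 28.2%.

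Among Pdgfra fibroblasts the shares of members lay closer to each other. They were 24.3% of the fibroblasts in WT anti-PD1 (21.6 to 27.0) and 27.6% in WT IgG (19.0 to 37.5). In the A159V tumors they were 28.2% with IgG (20.3 to 37.3) and 17.4% with anti-PD1 (11.6 to 24.6). WT anti-PD1 had 0.881-fold the share of WT IgG (0.627 to 1.24) and A159V IgG 1.02-fold (0.665 to 1.58). With markers compared after thinning each cell to 1500 UMIs, WT anti-PD1 had 0.718-fold the share of WT IgG (0.513 to 1.004). With at least 2 Pdgfra UMIs, A159V IgG had 0.7765-fold (0.466 to 1.295). The intervals of both folds held 1 under every alternative. The share of A159V anti-PD1 was 0.616-fold that of A159V IgG (0.389 to 0.974). It was 0.761-fold (0.446 to 1.30) with at least 2 Pdgfra UMIs asked of each fibroblast, 23 of 133 against 20 of 88 cells, and 0.677-fold (0.423 to 1.09) with markers compared after thinning, so that whether the interval held 1 changed with the setting. Each interval is over the cells of 1 library and holds no spread between tumors. The larger share of members among all cells in WT anti-PD1 thus went with a larger share of fibroblasts of both kinds.

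The genes of the rule describe the members and test nothing. Tnc, a glycoprotein of provisional matrix (chromosome 4, 63959785 to 64047015, minus strand, GRCm38), stood at 3085, 1497, 2138 and 1774 CPM, with a UMI in 26 of 27, 243 of 246, 33 of 33 and 25 of 25 members. Acta2 (chromosome 19, 34241090 to 34255590, minus strand) stood at 583 CPM (interval 524 to 648), 481 (462 to 501), 1002 (906 to 1106) and 1823 (1691 to 1963), with a UMI in 22, 185, 19 and 16 cells. Tnc was thus found in nearly every member and Acta2 in only some of them. Single cells added to the Acta2 levels, and the order of the WT libraries turned on them, as given next.

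The cell with most Acta2 UMIs held 34.5%, 3.997%, 35.6% and 43.8% of them. Without it the levels were 409, 466, 676 and 1131 CPM. The median member had 4, 3, 2 and 1 Acta2 UMIs and 40, 20, 16 and 22 Tnc UMIs. The A159V libraries thus had the higher summed levels of Acta2 and the fewer Acta2 UMIs in the median member, which was also the shallower cell.

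Tagln, an actin-binding protein of smooth muscle (chromosome 9, 45929619 to 45936058, minus strand), stood at 369, 114, 627 and 988 CPM, with a UMI in 12 of 27, 98 of 246, 13 of 33 and 14 of 25 members. Tnn, tenascin N (chromosome 1, 160085029 to 160153580, minus strand), stood at 20.1, 232, 68.3 and 168 CPM, and in A159V IgG 1 cell gave 70.4% of it. Tnn was found in 166 of 246 members of WT anti-PD1 and in 7, 7 and 9 members elsewhere. Spp1, the remaining marker and no part of the rule (chromosome 5, 104435118 to 104441050, plus strand), stood at 4142, 902, 2525 and 2982 CPM. In the Dpt-leading fibroblasts Spp1 stood at 40.9, 111, 113 and 80.7 CPM, below the members of the same library each time. One cell gave 43.3% of Spp1 in WT IgG, without which it stood at 2423 CPM, and macrophages had 1308, 493, 839 and 699 CPM.

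Each of the 5 markers had UMIs in every library, Tnc in nearly all members and the others in fewer of them. Members without a UMI of Acta2 or Tagln numbered 5 of 27, 57 of 246, 14 of 33 and 6 of 25, and 1, 2, 0 and 0 had none of Tnc or Tnn. With each cell thinned to 1500 UMIs, Tnc was found in 85.2%, 74.4%, 97.0% and 88.0% of members and Acta2 in 18.5%, 37.0%, 30.3% and 40.0% (81.5%, 75.2%, 57.6% and 64.0% before thinning, at the median depths given above). Tagln was found in 7.41%, 14.6%, 27.3% and 44.0% and Tnn in 3.70%, 22.4%, 3.03% and 8% of members. The limits that a count of 0 allows here are 11.1%, 1.22%, 9.09% and 12% of members, so that after thinning Tagln in WT IgG and Tnn in all libraries but WT anti-PD1 lay below them. T cells, which should lack both, had Tnc in 0.139%, 1.51%, 1.73% and 0.545% and Acta2 in 0.139%, 0.464%, 0.494% and 0.273% after the same thinning, with median depths of 4042, 4384, 3288 and 3542 UMIs. Spp1 was found in 37.0%, 39.4%, 36.4% and 60.0% of thinned members and in 15.4%, 4.75%, 17.5% and 14.0% of T cells.

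Cnn1 and Actg2, genes of mature smooth muscle, were low in the members of 3 libraries and higher in A159V anti-PD1. Cnn1 stood at 1.68, 1.43, 0 and 51.7 CPM, and in A159V anti-PD1 85.0% of it came from 1 of the 3 cells that had it. Actg2 stood at 3.35, 9.20, 15.2 and 36.2 CPM. Because most members had more tenascin than contractile UMIs, the cells are called myofibroblast-like here and no contractile phenotype is implied for each of them.

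**Figure D2:**
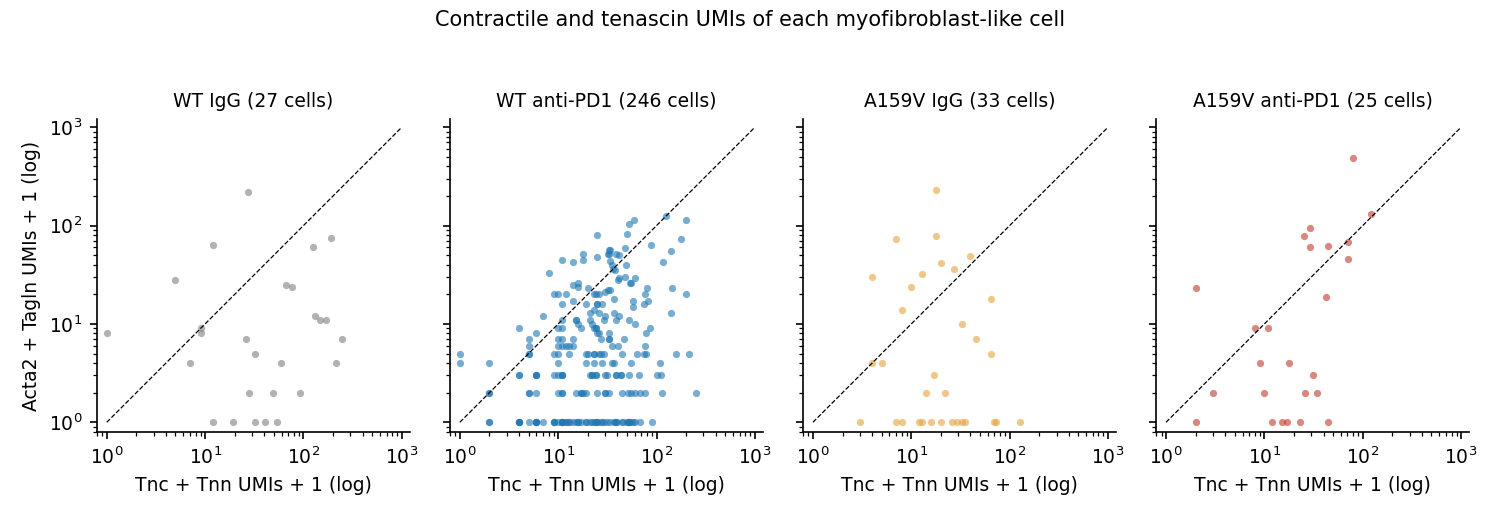
UMIs plus 1 of Acta2 and Tagln against UMIs plus 1 of Tnc and Tnn in each of the 331 members, 1 panel per library, both axes on a log scale, with a dashed line at equal numbers. Most points lie on the tenascin side of the line, and 4 and 37 members of the WT tumors with IgG and anti-PD1 and 10 and 8 of the A159V tumors lie on the contractile side.

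The members' line to the Dpt-leading fibroblasts was crossed by small numbers of UMIs. Over the 4 libraries 17 members exceeded by 1 UMI, with means of 6.88 UMIs of Acta2, Tagln, Tnc and Tnn and 5.88 of Dpt, Clec3b and Pi16, and 22 Dpt-leading fibroblasts fell short by 1 UMI, with means of 7.36 and 8.36. The like amounts in these cells near the line follow from their being picked by a difference of 1 UMI.

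Markers of other cell types were then summed in the members. Of 12 genes of pericytes and smooth muscle cells, 4, 3, 5 and 6 were at 0, and their summed level was 360, 109, 367 and 212 CPM, of which Ndufa4l2 gave 307, 85.0, 331 and 137. Rgs5, the defining gene of pericytes, was at 0 in WT IgG and A159V anti-PD1 and reached 0.613 CPM in WT anti-PD1 and 2.53 CPM in A159V IgG. In WT anti-PD1, 32 pericytes told by marker UMIs had 2228 CPM of Acta2.

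Macrophage and monocyte genes summed to 31.8, 30.7, 32.9 and 145 CPM in the members (4, 0, 2 and 2 of 10 at 0) and to 25.2, 34.1, 44.2 and 37.1 in the Dpt-leading fibroblasts. T and NK cell genes summed to 5.03, 6.54, 15.2 and 12.9 CPM, neutrophil genes to 13.4, 11.4, 20.2 and 0 CPM, and tumor cell genes to 10.0, 4.70, 30.4 and 33.6 CPM. Endothelial genes summed to 30.2, 120, 35.4 and 134 CPM, most of it Flt1 (23.5, 104, 22.8 and 124). More than 5 UMIs of Lyz2, Cd74, C1qa, C1qb and C1qc were found in 0, 2, 1 and 1 members. The level of macrophage genes in A159V anti-PD1 was thus the highest of the 4, and its interferon and antigen presentation counts are given below with and without the cells of more than 5 such UMIs.

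Other connective tissue types had markers in both classes. Adipocyte genes summed to 136, 165, 98.7 and 339 CPM in the members, against 492, 457, 482 and 193 in the Dpt-leading fibroblasts, and in A159V anti-PD1 Fabp4 gave 323 CPM, 82.4% of it from 1 cell. Tendon genes summed to 97.2, 63.4, 7.59 and 77.6 CPM against 13.6, 19.6, 4.42 and 18.6, and skeletal muscle genes to 3.35, 19.2, 2.53 and 75.0 CPM against 2.10, 4.52, 5.89 and 7.14. The tendon sum was thus higher in the members of WT IgG, WT anti-PD1 and A159V anti-PD1. Fmod gave 62.0 CPM of it in WT IgG, from 7 of 27 members, and 56.9 CPM in A159V anti-PD1, from 4 of 25. In A159V IgG Fmod gave 5.06 CPM from 2 UMIs, and the sums of both classes were too small to rank. Skeletal muscle genes were highest in A159V anti-PD1. Bone and cartilage genes summed to 18.4, 1.43, 2.53 and 18.1 CPM and Schwann cell genes to 6.70, 2.86, 7.59 and 0 CPM. The part of these cells in the results was not tested.

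The members were next set beside the Dpt-leading fibroblasts of their own library. This contrast is the one that chose the cells, so its counts are a description. Among genes of at least 50 CPM in either class, 192 of 3870 (4.96%) were at least 2-fold higher in the members of WT anti-PD1 and 256 (6.61%) at least 2-fold lower. In WT IgG 4.77% were higher and 8.29% lower, in A159V IgG 6.82% and 12.4%, and in A159V anti-PD1 8.58% and 9.87%. In every library at once, 37 of 3096 genes (1.2%) were higher and 118 (3.81%) lower. Genes whose ranges are said below not to overlap between the classes over the 4 libraries are among these. The share of all genes without overlap was not computed, so that the lack of overlap is a description of the genes named.

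Contractile genes stood higher in the members. Of the 17 listed, beyond Acta2 and Tagln, 5 of 12 at the minimum level were 2-fold higher in WT IgG, 11 of 13 in WT anti-PD1, and 9 of 12 and 11 of 12 in the A159V libraries, and none was 2-fold lower. Their median log2 ratio was 0.87, 1.34, 1.26 and 1.68, beside medians over all genes of 0.00, 0.11, -0.03 and 0.12. In every library Myl9, Tpm1, Tpm2, Cnn2 and Actn1 were 2-fold higher.

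Tpm2, a tropomyosin that lies along actin filaments, stood at 136, 234, 263 and 517 CPM in the members. In the Dpt-leading fibroblasts it stood at 23.1, 29.3, 20.6 and 12.8 CPM. Its lowest level in members was above its highest level in the other fibroblasts. Myl9, the regulatory light chain of smooth muscle and nonmuscle myosin, stood at 58.6, 68.3, 104 and 101 CPM against 17.8, 6.74, 14.7 and 4.28, and Tpm1 at 457, 500, 364 and 954 CPM against 151, 149, 106 and 97.1. Cnn2, a calponin, stood at 112, 93.6, 101 and 111 CPM against 36.7, 20.5, 22.1 and 28.5. For these genes too the members and the other fibroblasts did not overlap over the 4 libraries. Vcl, vinculin of focal adhesions, was closer, with 166, 261, 182 and 181 CPM against 149, 102, 64.8 and 76.4.

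**Figure D3:**
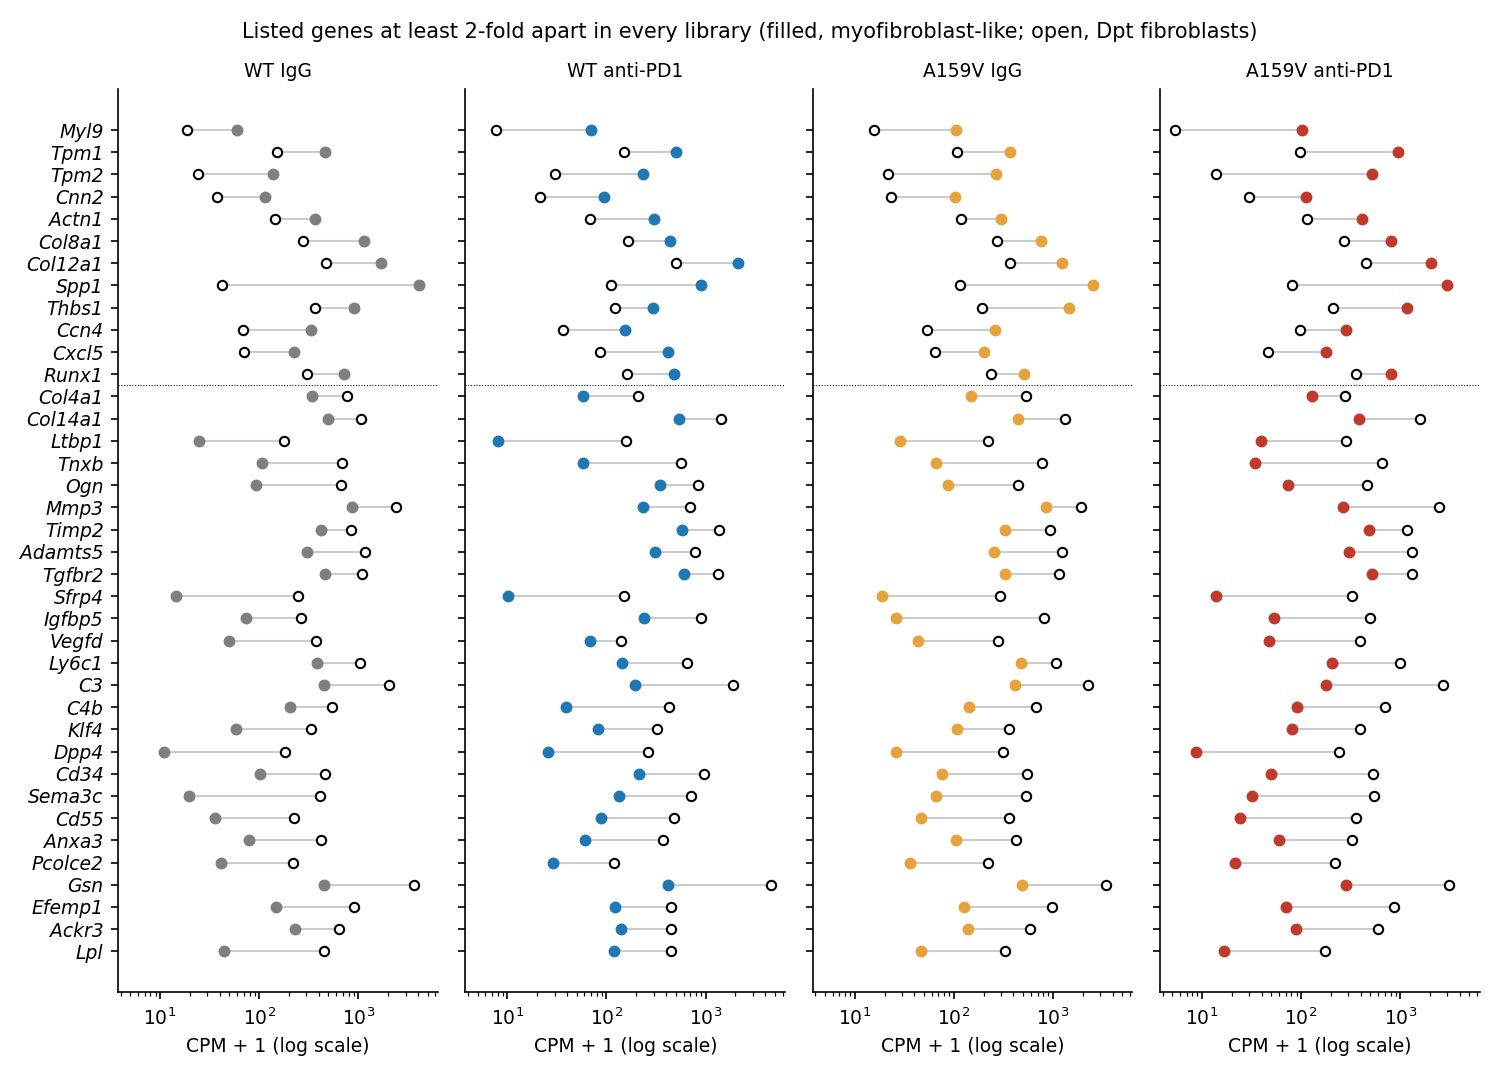
Levels of the listed genes that were at least 2-fold apart in the same direction in all 4 libraries, in CPM plus 1 on a log axis, 1 panel per library, with filled points for myofibroblast-like cells and open points for Dpt-leading fibroblasts. Above the dotted line, as for Tpm2, Myl9, Col12a1 and Spp1, the filled points lie to the right, and below it, as for Gsn, Dpp4 and C3, the open ones do.

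Of 6 fibrillar collagens at the minimum level, 3 were 2-fold higher in the members of each WT library and 2 and 0 in the A159V libraries. None of them was 2-fold apart in every library, and Col1a1, the main chain of type I collagen, stood at 19997, 26012, 20320 and 21303 CPM in the members. Among other collagens, Col12a1 and Col8a1 were higher in every library and Col4a1 and Col14a1 lower. Col12a1, a collagen that sits on fibril surfaces, stood at 1706, 2120, 1225 and 2043 CPM against 470, 507, 367 and 447. Col8a1 stood at 1154, 440, 767 and 802 CPM against 275, 166, 274 and 271. Both ranges lay wholly above those of the Dpt-leading fibroblasts. Col11a1, a minor fibrillar chain, stood at 106, 68.9, 55.7 and 51.7 CPM against 6.29, 9.78, 0 and 29.3, from 6, 51, 2 and 7 cells.

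Of the matricellular and adhesive glycoproteins, Spp1, Thbs1 and Ccn4 were 2-fold higher in every library and Ltbp1, Tnxb and Ogn lower, of 32 at the minimum level. Thbs1, thrombospondin 1, stood at 913, 295, 1462 and 1184 CPM in members against 361, 122, 193 and 207. Ccn4, a secreted Wnt-induced protein, stood at 332, 151, 258 and 282 CPM against 67.1, 35.2, 53.0 and 96.3. Levels of Thbs1 overlapped between the classes when libraries were crossed, since the members of WT anti-PD1 had less than the other fibroblasts of WT IgG. Postn, periostin, stood at 3480, 4774, 3049 and 3435 CPM against 1929, 4204, 1523 and 1704, so that its ratio was smallest in WT anti-PD1. Cthrc1, a secreted protein of matrix-forming fibroblasts, stood at 1185, 967, 1346 and 760 CPM against 572, 627, 489 and 482.

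Ltbp1, which tethers latent TGF-beta to the matrix, was lower in the members, with 23.5, 6.95, 27.8 and 38.8 CPM against 177, 158, 220 and 283. Ltbp2, of the same family without that tethering role, went the other way, with 235, 41.9, 192 and 155 CPM against 58.7, 14.0, 38.3 and 27.8. Tgfbr2, the type II receptor of TGF-beta, was the gene of its pathway list lower in every library, with 457, 601, 331 and 517 CPM against 1080, 1342, 1140 and 1305. The ligand Tgfb1 stood at 67.0, 43.3, 35.4 and 44.0 CPM against 23.1, 12.2, 8.84 and 14.3. Inhba, whose product forms activin A, stood at 88.8, 35.4, 114 and 155 CPM against 4.19, 5.67, 0 and 7.14. The members thus had more RNA of these ligands and less of the receptor than the other fibroblasts of the same library. Tgfb1 lay below the minimum of 50 CPM in both classes of every library but WT IgG, and Inhba did in WT anti-PD1. Of 14 genes of the pathway list at the minimum in every library, 1 was lower in each and 0 were higher, so the list as a whole had no such direction.

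Proteases and their inhibitors went both ways, with Mmp3, Timp2 and Adamts5 lower in every library and none of 17 higher. Mmp3, stromelysin 1, stood at 861, 235, 853 and 261 CPM against 2386, 699, 1934 and 2454. Timp1, an inhibitor of metalloproteinases, stood at 3247, 814, 3168 and 1397 CPM against 1152, 307, 865 and 888, higher in the members of each library but below 2-fold in A159V anti-PD1.

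Genes of universal fibroblasts, other than the rule's, were lower in the members. At 50 CPM, 11 of 12, 11 of 12, 12 of 13 and 12 of 13 were 2-fold lower and none higher, with median log2 ratios of -2.41, -2.30, -2.83 and -3.41, and 10 of 11 were lower in every library. Gsn, an actin-severing protein, stood at 446, 413, 483 and 284 CPM in members against 3689, 4534, 3429 and 3078. Dpp4, a membrane peptidase of adventitial fibroblasts, stood at 10.1, 24.5, 25.3 and 7.76 CPM against 180, 259, 312 and 238. Cd34, a sialomucin of the cell surface, stood at 100, 212, 75.9 and 49.1 CPM against 465, 955, 547 and 532. None of these genes overlapped between the classes over the 4 libraries.

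The complement genes C3 and C4b and Ly6c1 were lower in every library, of 12 inflammatory fibroblast genes. C3 stood at 454, 192, 415 and 178 CPM against 2019, 1888, 2251 and 2731. Of 10 chemokines, Cxcl5, which attracts neutrophils, was higher in every library, with 223, 417, 202 and 178 CPM against 69.2, 85.7, 63.3 and 44.96. Chemokines as a list differed in direction by library. In WT IgG 1 of 13 was 2-fold higher and 7 lower, and in WT anti-PD1 4 of 11 were higher and none lower. With A159V 7 of 13 were higher and 1 lower under IgG, and 4 of 11 higher and 2 lower under anti-PD1.

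Of 14 genes of growth factor receptors and ligands, Igfbp5 and Vegfd were lower in every library and none higher, and of 7 Wnt pathway genes Sfrp4 was lower. Vegfd, a lymphatic growth factor, stood at 48.6, 66.9, 43.0 and 46.5 CPM in members against 376, 140, 275 and 395. Sfrp4, a secreted Wnt antagonist, stood at 13.4, 9.20, 17.7 and 12.9 CPM against 243, 150, 290 and 325. Igfbp5, which binds insulin-like growth factors, stood at 72.1, 240, 25.3 and 51.7 CPM against 263, 900, 821 and 499. The members' range of Vegfd and of Sfrp4 lay below that of the other fibroblasts.

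Among mesenchymal transcription factors, Runx1 was higher in every library and Klf4 lower. Runx1 stood at 712, 475, 506 and 809 CPM against 301, 159.3, 237 and 356, and Klf4 at 57.0, 80.8, 106 and 80.2 CPM against 335, 322, 358 and 397. Twist1 and Prrx1, which mark mesenchyme in general, were near equal in most libraries. Runx2, a factor of bone and cartilage lineages, stood at 230, 192, 119 and 163 CPM against 90.1, 60.4, 64.8 and 62.8.

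Lrrc15, a membrane protein known from myofibroblasts of tumors, was on no list and was picked out after its values were seen. It stood at 226, 404, 187 and 194 CPM against 27.3, 124, 30.9 and 26.4, with log2 ratios of 3.01, 1.69, 2.56 and 2.83. Kif26b, a kinesin-like protein, and Ptk7, a receptor of planar cell polarity, were picked out in the same way. They stood at 469, 566, 278 and 572 CPM against 47.2, 107, 70.7 and 62.1, and at 70.4, 114, 58.2 and 137 CPM against 8.38, 21.1, 14.7 and 19.98. Of the integrin and collagen crosslinking lists, 2 and 14 genes were at the minimum in every library, and none was 2-fold apart in each. Over all genes 1.2% were higher and 3.81% lower, so these counts are too small to set the lists apart from all genes. The ranges of Lrrc15, Kif26b and Ptk7 in members lay above those in the Dpt-leading fibroblasts.

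The highest ratios by the naming rule in WT anti-PD1, where the counts were largest, went beyond these lists. Adgrl3, an adhesion receptor, stood at 103.03 CPM in members against 4.93 in the Dpt-leading fibroblasts, a log2 ratio of 4.13 (3.80 to 4.46), with a UMI in 82 of 246 members. Col7a1, the collagen of anchoring fibrils, followed with 65.0 against 4.77 CPM (3.52, 3.17 to 3.86), and Nrg1, a ligand of ERBB receptors, with 139 against 14.2 CPM (3.20, 2.97 to 3.43). Also high were Bmpr1b, a receptor of bone morphogenetic proteins, Ccbe1, which acts in lymphatic vessel growth, and Prss35, with 100, 279 and 66.8 CPM in the members. Hist1h2ap, a histone gene of dividing cells, stood at 56.6 against 6.66 CPM from 31 members.

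The lowest ratios in WT anti-PD1 were those of Smpd3, a sphingomyelinase, with 4.91 against 497 CPM (-6.40, -6.88 to -5.92), and Eln, elastin, with 17.6 against 689 CPM (-5.21, -5.51 to -4.92). Pgr, the progesterone receptor, stood at 7.77 against 192 CPM (-4.46), and the steroid-metabolizing aldo-keto reductase genes Akr1c14 and Akr1c18 at 2.04 against 106 and 1.23 against 54.4 CPM. Scara5, an adventitial fibroblast gene, stood at 5.52 against 158 CPM. Tmeff2 had 35.6 against 626 CPM and was found in 65 of 246 members and 659 of 758 Dpt-leading fibroblasts.

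Cell cycle genes were higher in the members of WT anti-PD1, 5 of 6 at the minimum level and none lower, with a median log2 ratio of 2.10. The counts elsewhere were 3 of 9, 1 of 8 with 1 lower, and 6 of 7. Top2a, a topoisomerase of dividing cells, had a UMI in 58 of 246 members of WT anti-PD1 and in 7, 9 and 4 members elsewhere. Its level was 241, 134, 132 and 199 CPM against 102, 24.9, 112 and 69.2. In A159V IgG the classes were close in Top2a, and outside WT anti-PD1 the levels came from few cells.

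Glycolysis and hypoxia genes were 2-fold higher in 2 of 16 in WT IgG with 1 lower, in 4 of 13 in WT anti-PD1, and in 12 of 17 in each A159V library. The medians were 0.36, 0.81, 1.21 and 1.28 on the log2 scale. Slc2a1, the glucose transporter GLUT1, stood at 43.6, 24.5, 144 and 90.5 CPM in members against 31.4, 14.9, 26.5 and 27.1. Hk2, hexokinase 2, stood at 117, 62.6, 276 and 246 CPM against 182, 42.4, 92.8 and 151, so that in WT IgG its members were the lower class.

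**Figure D4:**
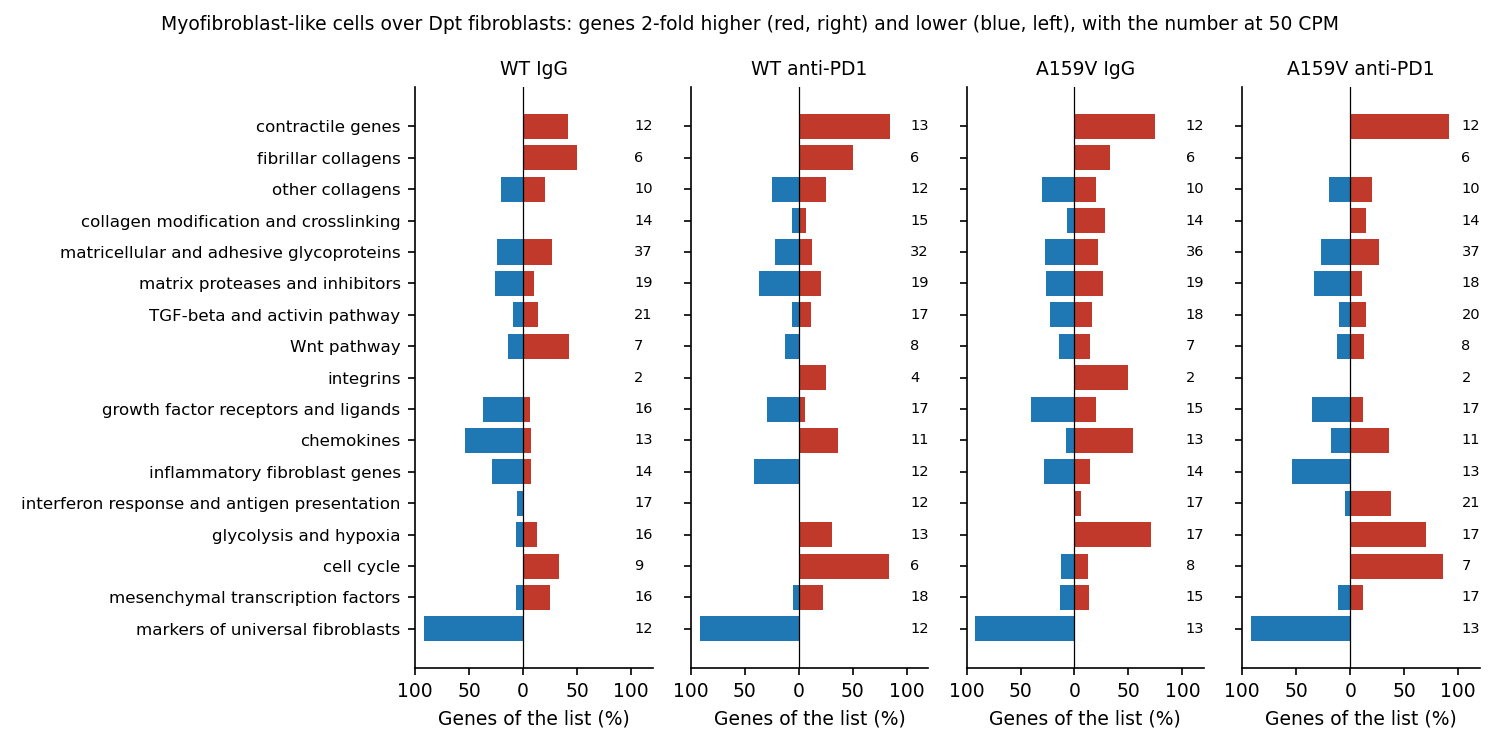
Percent of each list's genes at 50 CPM or more that were at least 2-fold higher (to the right) or lower (to the left) in myofibroblast-like cells than in Dpt-leading fibroblasts, with the number of genes, 1 panel per library. Contractile genes lie on the higher side in all 4 libraries and universal fibroblast genes on the lower side.

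Within the members, those with more Acta2 and Tagln than Tnc and Tnn UMIs were 15.04% in WT anti-PD1 (37 of 246, interval 10.8 to 20.1) and 14.8% in WT IgG (4 of 27, 4.19 to 33.7). In the A159V tumors they were 30.3% with IgG (10 of 33, 15.6 to 48.7) and 32.0% with anti-PD1 (8 of 25, 14.9 to 53.5). The intervals of the 4 libraries overlapped. In WT anti-PD1, which had the most cells, 37 contractile-leading members were set beside 203 tenascin-leading ones, with median depths of 14860 and 19857 UMIs. Of 3813 genes, 45 (1.18%) were 2-fold higher in the contractile-leading cells and 90 (2.36%) lower.

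Of the contractile genes that did not define the split, 4 of 13 were higher and none lower, with a median log2 ratio of 0.57 beside 0.01 over all genes. Myl9 stood at 199 CPM in contractile-leading against 46.6 in tenascin-leading members (2.07, 1.76 to 2.39), and Mylk, the myosin light chain kinase, at 233 against 88.3 CPM (1.39, 1.12 to 1.66). Nexn, an actin-binding protein of muscle, stood at 52.4 against 10.8 CPM. Ccn2, a connective tissue growth factor and a target of TGF-beta and YAP, stood at 157 against 30.2 CPM (2.34, 1.97 to 2.71), from 9 of 37 and 42 of 203 cells. Ptn, the growth factor pleiotrophin, was widespread, with 1003 against 403 CPM in 36 of 37 and 148 of 203 cells. Col7a1 and Adgrl3, high in members over Dpt-leading fibroblasts, were also higher in the contractile-leading cells, with 177 against 47.3 and 239 against 81.6 CPM.

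Of 11 inflammatory fibroblast genes, Saa3 and Ly6c1 were 2-fold lower in the contractile-leading members and none was higher, with a median of -0.53. The next genes have the lowest ratios by the naming rule. Serpinb2, a plasminogen activator inhibitor, had 0 UMIs in 37 contractile-leading cells and 129 CPM in the others, from 37 of 203 cells, at least 28.7-fold lower. Saa3, an acute-phase protein, had 3 UMIs against 1115, a ratio of 0.0168 (0.00345 to 0.0492). Il1rl1, the receptor of interleukin 33, stood at 18.0 against 267 CPM, from 8 of 37 and 100 of 203 cells. Ackr3, an atypical chemokine receptor, stood at 20.95 against 158 CPM, Ptgis, prostacyclin synthase, at 26.9 against 117 CPM, and Mt2, a metallothionein, at 124 against 508 CPM. Of 20 protease genes 5 were 2-fold lower in contractile-leading cells, Mmp3, Mmp13, Timp1 and Adamts5 among them, and none was higher, with a median of -0.25 and 8 of the 20 above 0, and of 9 universal fibroblast genes 4 were lower.

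The members of WT anti-PD1 were compared with those of WT IgG, 246 cells with 27, to ask how they differed with PD1 blockade in WT tumors. Of 3948 genes, 279 (7.07%) were 2-fold higher in WT anti-PD1 and 263 (6.66%) lower. WT anti-PD1 differed from the other libraries in the whole tumor, and values of the Dpt-leading fibroblasts or macrophages are given for some genes. Contractile genes were close, with 1 of 13 higher, none lower and a median log2 ratio of 0.13 beside 0.07 over all genes. The 1 gene was Mylk, with 111 CPM in WT anti-PD1 and 6.70 in WT IgG, and 5.06 and 18.1 in the A159V libraries. Its log2 ratio was 3.87 (2.63 to 5.10), from 106 of 246 against 4 of 27 cells, and the Dpt-leading fibroblasts had 23.4 against 6.29 CPM.

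Interferon response genes were lower in WT anti-PD1. Of 17 at the minimum level 8 were 2-fold lower (Irf7, Isg15, Ifit1, Ifit3, Gbp7, Iigp1, Psmb8 and H2-D1) and none higher, with a median of -0.98. Isg15, a ubiquitin-like protein induced by interferon, stood at 96.1 CPM in WT anti-PD1 against 829 in WT IgG (-3.10, -3.28 to -2.92), and was found in 104 of 246 and 27 of 27 members. In the A159V tumors it stood at 1164 CPM with IgG and 613 with anti-PD1, so that WT anti-PD1 was the low library of the 4. The same gene stood at 61.2 against 612 CPM in Dpt-leading fibroblasts, 184 against 1350 in macrophages and 74.7 against 606 in T cells. Ifit3 stood at 9.20 against 168 CPM in members (-4.05, -4.52 to -3.57), 14.3 against 252 in Dpt-leading fibroblasts and 32.5 against 361 in macrophages. The difference was thus found in each class of cells looked at in that library.

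**Figure D5:**
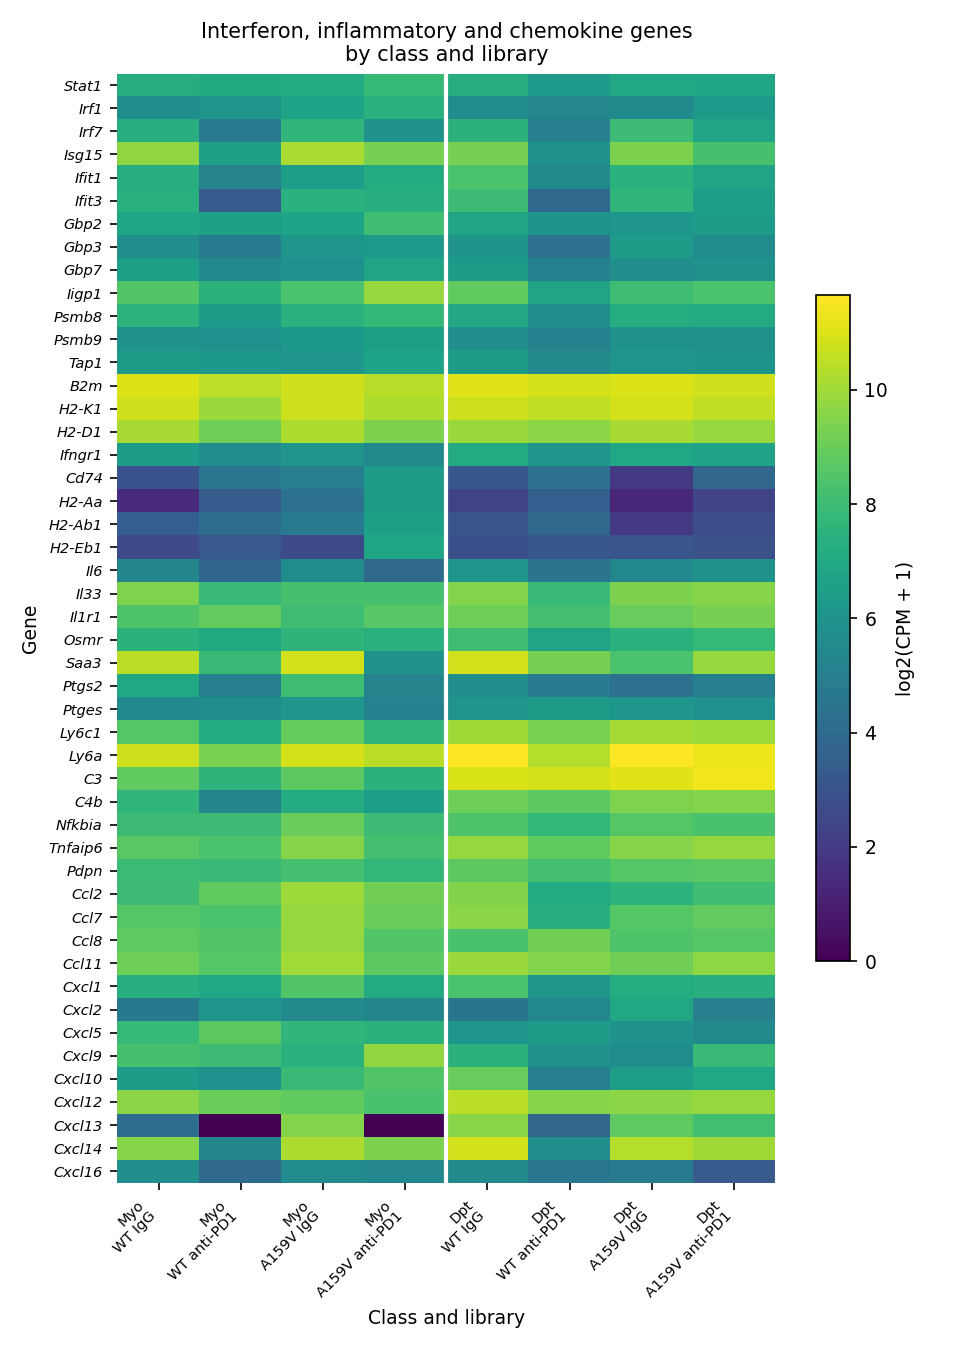
Heat map of log2(CPM + 1) of interferon response and chemokine genes (rows) in myofibroblast-like cells and Dpt-leading fibroblasts of the 4 libraries (columns, Myo and Dpt), with inflammatory fibroblast genes between them and yellow for higher levels. Isg15 and Ifit3 are darkest in both classes of WT anti-PD1, and Iigp1 and Gbp2 are brightest in the members of A159V anti-PD1.

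Inflammatory fibroblast genes were lower as well, 7 of 13 (Il33, Saa3, Ptgs2, Ly6c1, Ly6a, C3 and C4b) with none higher and a median of -1.24. Saa3 stood at 229 CPM in WT anti-PD1 against 1384 in WT IgG, and Il33, an alarmin, at 232 against 665 CPM. In the Dpt-leading fibroblasts too they were lower, with 609 against 1842 CPM of Saa3 and 236 against 725 CPM of Il33. Cxcl14, a chemokine of skin and stroma, stood at 39.9 against 732 CPM (-4.17, -4.40 to -3.93), and the Dpt-leading fibroblasts had 52.5 against 1854 CPM. Id3, a target of bone morphogenetic protein signaling, stood at 25.6 against 235 CPM (-3.15), and Apod, an apolipoprotein, at 54.4 against 419 CPM, with 72.7 against 160 and 219 against 1101 CPM in Dpt-leading fibroblasts. Cell cycle genes were 2-fold lower in 7 of 9, and in 4 when each gene was taken without its highest cell.

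In the matrix, 12 of 35 matricellular genes were lower in WT anti-PD1 and 2 were higher (Lum and Ogn, leucine-rich proteoglycans), with a median of -0.26. Thbs1, Ccn2, Ccn4 and Spp1 were among the lower ones. The basement membrane chains Col4a1 and Col4a2 were lower, with 57.0 against 337 and 34.8 against 179 CPM, while Col6a1 of the microfibrils was higher with 2181 against 1074 CPM. Of 18 protease genes 5 were lower, Timp1 and Mmp3 among them, and Adam12 was higher, with 854 against 409 CPM. The Dpt-leading fibroblasts differed in the same direction in 7 genes, with 208 against 769 CPM of Col4a1, 104 against 354 of Col4a2, 122 against 361 of Thbs1, 307 against 1152 of Timp1, 699 against 2386 of Mmp3, 2109 against 704 of Col6a1 and 672 against 245 of Adam12. Spp1 went the other way in the Dpt-leading fibroblasts, with 111 CPM in WT anti-PD1 against 40.9 in WT IgG. The genes of the members' matrix thus did not move together.

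Genes found in many members of WT anti-PD1 and few of WT IgG led the higher side. Prss35, a protease-like secreted protein, had 66.8 CPM in 113 of 246 members and 0 UMIs in WT IgG, at least 13.3-fold higher. Tgfbi, a matrix protein induced by TGF-beta, stood at 209 against 26.8 CPM (2.92, 2.23 to 3.605), in 197 of 246 and 9 of 27 members. Ptn stood at 496 against 70.4 CPM (2.80, 2.36 to 3.23). Camk1d, a calmodulin-dependent kinase, stood at 822 against 97.2 CPM (3.07, 2.70 to 3.44), but also at 886 against 159.3 in Dpt-leading fibroblasts and 1210 against 506 in macrophages.

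The comparison of A159V IgG with WT IgG, 33 members with 27, asked how the members differed around tumor cells of the other genotype. It shares the WT IgG library with the comparison above. Of 3712 genes, 108 (2.91%) were 2-fold higher in A159V IgG and 152 (4.09%) lower, with a median log2 ratio of -0.03. Contractile genes were 2-fold apart in 0 of 12, interferon genes in 0 of 17 and collagen crosslinking genes in 0 of 14.

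Chemokines stood higher in A159V IgG, with 6 of 12 (Ccl2, Ccl7, Ccl8, Cxcl1, Cxcl10 and Cxcl13), none lower and a median of 0.996. When each gene was taken without its highest cell, 4 of 10 were higher and 2 lower, and with each cell weighted equally 4 of 12 were higher and 1 lower. Ccl2, which attracts monocytes, stood at 999 against 250 CPM (1.997, 1.73 to 2.27), from 20 of 33 and 21 of 27 members. Ccl7, a related monocyte attractant, stood at 926 against 387 CPM, from 28 and 21 members. In the Dpt-leading fibroblasts both were the lower in A159V IgG, with 184 against 700 CPM of Ccl2 and 384 against 790 CPM of Ccl7. Cxcl13, which attracts B cells, was different in kind, since 99.6% of its 708 CPM came from 1 cell, and with the highest cell of each library left out it stood at 2.60 against 5.17 CPM, the other way round. One cell gave 43.5% of Ccl8, 61.1% of Cxcl10 and 44.4% of Cxcl1.

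Of 17 glycolysis and hypoxia genes 4 were 2-fold higher in A159V IgG (Slc2a1, Hk2, Bnip3 and Adm) and none lower, with a median of 0.65. Slc2a1 stood at 144 against 43.6 CPM, Hk2 at 276 against 117, and Bnip3, a mitophagy gene induced by hypoxia, at 192 against 82.1. In the Dpt-leading fibroblasts Slc2a1 stood at 26.5 against 31.4 and Hk2 at 92.8 against 182 CPM, so the members and the other fibroblasts of the same libraries differed in direction. The difference between the classes was not tested.

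Early response genes were among the named ones. Fosb, a subunit of the AP-1 factor, stood at 488 against 121 CPM (2.01, 1.62 to 2.40), in 24 of 33 and 14 of 27 members, with 295 against 337 CPM in Dpt-leading fibroblasts. Zfp36, which destabilizes messages of inflammatory genes, stood at 334 against 80.4 CPM (2.04, 1.57 to 2.51). Pappa, a protease that cleaves insulin-like growth factor binding proteins, stood at 149 against 26.8 CPM.

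The lower side held Ednra, the endothelin receptor of contractile cells, with 17.7 against 122 CPM (-2.72, -3.78 to -1.66), in 6 of 33 and 20 of 27 members. Ecrg4 stood at 35.4 against 203 CPM. Of 10 cell cycle genes 3 were lower (Ccnb1, Birc5 and Cenpf), and Nusap1, Ect2, Knl1, Cdc20 and Kif23, which act in mitosis, were named by the rule with UMIs in 2 to 6 members of each library.

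The comparison of A159V anti-PD1 with A159V IgG, 25 members with 33, asked how the members differed with PD1 blockade around A159V tumor cells. It shares the A159V IgG library with the comparison by genotype. Of 3823 genes, 267 (6.98%) were 2-fold higher in A159V anti-PD1 and 133 (3.48%) lower, with a median log2 ratio of 0.03. The split depended on single cells: 191 were higher and 144 lower when each gene was taken without its highest cell.

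Inflammatory fibroblast genes were lower in 8 of 14 (Il6, Saa3, Ptgs2, Ptges, Ly6c1, C3, Nfkbia and Tnfaip6) and higher in none, with a median of -1.002. Saa3 stood at 62.1 against 1875 CPM (-4.89, -5.47 to -4.32), in 5 of 25 and 14 of 33 members, while the Dpt-leading fibroblasts had 921 against 328 CPM. Ptgs2, the inducible cyclooxygenase, stood at 36.2 against 263 CPM (-2.83, -3.61 to -2.04). Of 19 protease genes 6 were lower, Mmp3, Mmp13, Timp1, Adamts4 and Plat among them, and Timp3 was higher, with Mmp13 found in 1 member of each library. Mmp3 stood at 261 against 853 CPM in members and at 2454 against 1934 in Dpt-leading fibroblasts.

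Interferon and antigen presentation genes were higher in 6 of 21 (Gbp2, Iigp1, Cd74, H2-Aa, H2-Ab1 and H2-Eb1) and lower in 1, Irf7, with a median of 0.66. Without members of more than 5 immune UMIs the counts were 3 of 17 higher and 1 lower, and without each gene's highest cell 2 of 17 higher and 2 lower. Iigp1, a GTPase induced by interferon gamma, stood at 929 against 321 CPM, from 20 of 25 and 27 of 33 members, with 324 against 258 CPM in Dpt-leading fibroblasts. Gbp2, a guanylate-binding protein, stood at 272 against 109 CPM. The class II genes rested on 1 cell, which gave 90.6% of Cd74, 87.1% of H2-Aa, 76.3% of H2-Ab1 and 95.6% of H2-Eb1. Cxcl9, a T cell attractant induced by interferon gamma, stood at 877 against 175 CPM from 5 of 25 and 10 of 33 members, with 54.0% from 1 cell.

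Brinp3 stood at 678 against 68.3 CPM (3.29, 2.73 to 3.86), in 16 of 25 and 11 of 33 members, and 90.6 against 38.3 CPM in Dpt-leading fibroblasts. Cttnbp2, a cortactin-binding protein, had 59.5 CPM in 10 of 25 members and 0 UMIs in A159V IgG, at least 7.84-fold higher. Pgf, placental growth factor, had 0 UMIs in A159V anti-PD1 and 43 UMIs in 9 of 33 members of A159V IgG, at least 14.0-fold lower. Fabp4, a fatty acid-binding protein of adipocytes and endothelium, stood at 323 against 43.0 CPM with 82.4% from 1 cell. Of 13 contractile genes 2 were higher, Tpm1 at 954 against 364 CPM and Cnn1, at least 6.81-fold higher against 0 UMIs, with UMIs in 3 members and 85.0% of them in 1 cell.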

How the data were processed

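Cells of 4 dissociated MC38 tumor samples were sorted into CD45+ and CD45− fractions with beads and remixed before loading on a 10x Genomics 3′ chip, per the study's methods. The counts are whole-number UMI counts per gene and barcode from the authors' run of Cell Ranger 7.2.0 on the mm10 reference (per the file headers, with reads in introns counted; the submitters' processing notes list 5.0.1) deposited for the barcodes it called as cells. The study's later removal of background RNA and doublets is not in these counts. Background RNA was not subtracted here, and no doublets were removed: at 0.8% per 1000 cells a Scrublet score marked 1 member of WT IgG and 2 of each other library.

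The members, the 29 gene lists (446 genes) and the comparisons were chosen with earlier results of these data known. Class sums of UMIs were given as CPM, with intervals from the exact Poisson distribution. Shares have Clopper-Pearson and their folds Katz intervals. For log2 ratios 1 CPM was added to both levels and intervals came from the delta method, over genes of at least 50 CPM in either class, and a gene counted as higher or lower at 2-fold. A count of 0 was set to a floor of 3 counts, which gives "at least". Intervals hold counting error alone. Named genes were the 15 highest and 15 lowest ratios of a comparison, without the genes of the rule, those of mitochondria, ribosomal proteins, hemoglobin, immunoglobulins and T cell receptors, and any gene that a class of 50 or more other cells had at more than 5 times the level, plus examples from the lists. Other genes were picked out after their values were seen, as stated. The calculation was tried on simulated counts that held counting error alone, without variation between cells. It therefore does not bear on levels that rest on single cells. Gene positions are from GENCODE M21 (GRCm38) and promoters from RefSeq (GRCm38.p6). Python 3.11.15, numpy 2.4.6, scipy 1.17.1, pandas 2.3.3 and scanpy 1.11.5 were used. Alternatives changed the gene minimum of a barcode, the UMI limits of collagen and Pdgfra, the marker difference, the denominator and thinning. They also changed doublets, mitochondrial content, the CPM minimum, the pseudocount, the scaling and the weighting of cells. Without replicates, nothing was tested. Some genes that met these rules are not reported here.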

Additional observations from a re-analysis of the deposited data

Results flagged for a closer look

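In the comparisons of anti-PD1 with IgG, 3 listed genes were 2-fold apart in opposite directions in WT and in A159V tumors, with intervals that excluded 0 and with the same directions when each gene was taken without its highest cell. The comparisons share no library, and the difference between them was not tested, since each rests on 1 library against 1. Of 3443 genes at the minimum in both comparisons, 21 were opposite in this way, and 13 without the highest cell. Over all genes of each comparison, 7.07% were higher and 6.66% lower in WT, and 6.98% and 3.48% in A159V. At these shares unrelated comparisons would give a like number of opposite genes. The count of 21 thus does not set the 2 tumor types apart, and the 3 genes below are a description.

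Iigp1 stood at 372 CPM with IgG and 177 with anti-PD1 in WT tumors, and at 321 and 929 CPM in A159V tumors. Its log2 ratio was -1.06 in WT and 1.53 in A159V, a difference of -2.59 (-1.05 and 1.67 without the highest cell). Sfrp1, a secreted Wnt antagonist, stood at 238, 94.6, 197 and 489 CPM. Its log2 ratio was -1.32 in WT and 1.30 in A159V, a difference of -2.63 (-1.25 and 1.13 without the highest cell). Cenpf, a kinetochore protein of dividing cells, stood at 117, 31.5, 20.2 and 67.2 CPM, from 6, 38, 3 and 5 members. Its log2 ratio was -1.86 in WT and 1.68 in A159V, a difference of -3.55 (-1.51 and 1.85 without the highest cell).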

How the results depend on the processing

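Of the values recomputed, 91 stayed within the limit set for them and 22 moved. These were shares and counts of genes, which have no direction that could reverse. Among single genes, at most 2 of those 2-fold apart in a comparison changed sign under a setting, when cells were weighted equally or each gene was taken without its highest cell, Cxcl13 in A159V IgG over WT IgG among them. With more than 2000 genes per barcode the share of members was 6.88% in WT anti-PD1 against 0.789% in WT IgG, and 0.801% and 0.635% in A159V tumors with IgG and anti-PD1. Among barcodes with 0 Ptprc UMIs it was 13.5% against 1.20%, and 1.02% and 1.05%. In WT anti-PD1 it was 3.68% with more than 500 genes and 3.90% (20.5% of Pdgfra fibroblasts) with markers compared after thinning, and in A159V IgG 0.319% with at least 2 Pdgfra UMIs. WT anti-PD1 had the highest share of cells under each of these settings. The interval of the share of Pdgfra fibroblasts in A159V anti-PD1 over A159V IgG held 1 under 4 of 8 alternatives.

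Genes 2-fold apart numbered 448 for members and Dpt-leading fibroblasts of WT anti-PD1, 170 at a minimum of 200 CPM and 1079 at 10 CPM. They numbered 542, 164 and 1577 for WT anti-PD1 over WT IgG, 260, 43 and 1633 for A159V IgG over WT IgG, 400, 72 and 1980 for A159V anti-PD1 over A159V IgG, and 135, 35 and 702 for the contractile-leading over the tenascin-leading members. Fewer genes are tested at a higher minimum. The balance of higher and lower genes also changed with it. At 200 CPM it was 65 higher and 99 lower for WT anti-PD1 over WT IgG (279 and 263 at 50 CPM). It was 28 and 15 for A159V IgG over WT IgG (108 and 152), and 34 and 38 for A159V anti-PD1 over A159V IgG (267 and 133). At 10 CPM it was 570 and 509 for members over Dpt-leading fibroblasts of WT anti-PD1 (192 and 256). The other balances at these minima kept their side.

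With each gene taken without its highest cell, a setting chosen after seeing the data, the counts were 448, 585, 222 and 335, and 20 higher with 139 lower for the contractile-leading members. This removes more from the class with fewer cells, and the share of higher genes went from 51.5% to 70.4% for WT anti-PD1 over WT IgG and from 33.3% to 12.6% for the contractile-leading members. Median-of-ratios scaling moved the ratios by 0.13 (log2) for the members of WT anti-PD1 over Dpt-leading fibroblasts, under which 9 of 13 contractile genes were higher and none lower. For WT anti-PD1 over WT IgG this scaling moved them by 0.07. The balance of that comparison turned to 239 higher and 305 lower, from 279 and 263 in the main setting. No paired analysis was possible because each group had 1 library and the result comes from no test. The 25 to 33 members of 3 libraries limit what can be said of genes found in few cells, and background RNA from other cells is in every level.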
